A study of Arabidopsis thaliana with 36 samples.

Results

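A set of 40 transcripts out of 37336 in the table had not risen much by 30 min of high light in Col-0 and WS leaves. In both ecotypes it was well above its starting level at 120 min and had fallen again by 240 min. The members were chosen by a rule on mean RPKM (reads scaled by transcript length and by library depth). For each ecotype, R(t) was the mean at time t plus 1 divided by the mean at 0 min plus 1. A member had at least 1 of its 36 readings above 7 RPKM and, in both ecotypes, R(15) and R(30) under 2, R(120) of at least 4, and R(240) at most 0.5 of R(120). Of the 37336 genes, 13817 had a reading above 7 RPKM, and all 40 members were among them by the rule. The means at 0, 15, 30, 120 and 240 min of both ecotypes selected the set, so changes between these times are given as a description. The means at 60 min were not used by the rule, and the comparison of WS with Col-0 at 60 min is the one that was tested.

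RNA-Seq was run on fully expanded leaves of wild-type WS (Wassilewskija) and wild-type Col-0 (Columbia-0) Arabidopsis thaliana, with 3 libraries for each ecotype at 0 min (light of 120 μmol m-2 s-1) and at 15, 30, 60, 120 or 240 min after a step in light to 500 μmol m-2 s-1. All groups were grown hydroponically in the lower light and were moved into a gas exchange chamber, and the 0 min leaves are the low-light baseline of each ecotype. Leaves were sampled over time from 3 plants of an ecotype, so the replicate number was read as the plant, which the labels do not state. No low-light library was taken after 0 min, so high light, time of day and repeated removal of leaves cannot be told apart in the time courses. A higher RPKM per leaf could come from more cells of a type or from more RNA per cell, and these cannot be told apart in whole leaves either.

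High light drives more carbon through photosynthesis than a shade-grown leaf normally handles, and it also raises the load of reactive oxygen species and reactive carbonyls. Leaves respond in waves: signalling genes and heat shock factors are induced within minutes, and genes for transport, wall synthesis, detoxification and protein synthesis often follow. Ribosome production is one of the costliest processes in a plant cell and is known to respond to sugar supply through the TOR kinase, a central growth regulator. Sugar supply also acts on translation of some transcription factor mRNAs, of which the bZIP factors related to GBF6 are the textbook case.

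Reads in genes ranged from 7.35 M (M for mega, WS 0 min replicate 1) to 41.7 M per library, with a median of 28.6 M. For mesophyll markers (5 genes, among them those of Rubisco and light-harvesting proteins), 5 of 5 were lower at 120 min than at 0 min in WS and 2 of 5 in Col-0, against 17.3% and 15.7% of all genes. At 60 min 0 of 5 passed the test between WS and Col-0. The paper reports that Calvin-Benson cycle transcripts fell in high light, so these markers do not count cells. Of 5 root markers only 1 passed 7 RPKM, and it was lower at 120 min in both ecotypes. Of guard cell (3), phloem companion cell (6), epidermis (5) and myrosin cell (3) markers, 0, 2, 1 and 0 were higher at 120 min in WS. In Col-0 1 of each list was higher. Lower were 0 of each list, except 2 phloem companion cell markers in Col-0. Their part in the results was not tested. In each ecotype 1 library stood apart from the other 2 at 120 min. Over the 40 members, the median of log2(RPKM + 1) above the mean of 0 min was 2.94, 2.90 and 1.71 in the 3 WS libraries of 120 min, against 0.91, 2.60 and 3.65 in the 3 Col-0 libraries. WS replicate 3 was thus the low library in WS, and Col-0 replicate 1 the low library in Col-0. At 60 min the same median was 1.99, 2.17 and 2.20 in WS, against 0.40, 1.00 and 1.56 in Col-0, and the 2 ecotypes did not overlap. By this median 120 min was the highest time in 4 of 6 plants, while WS replicate 3 was highest at 60 min (2.20, against 1.71 at 120 min) and Col-0 replicate 1 at 240 min (1.01, against 0.91 at 120 min).

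**Figure D1:**
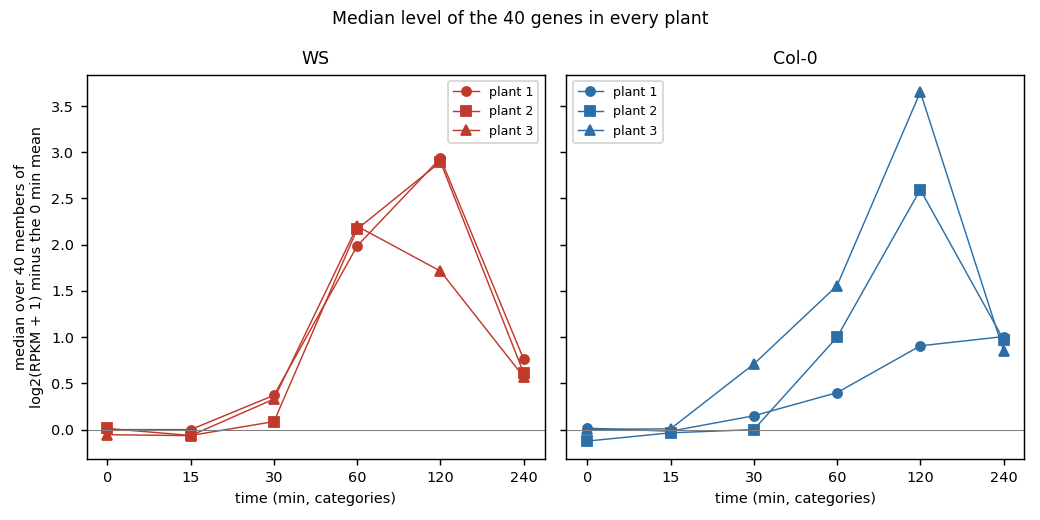
Median over the 40 genes of log2(RPKM + 1) minus the mean of 0 min of the same ecotype, in every library, against time after the step in light (min); points joined by a line carry the same replicate number. WS plants were at 1.99 to 2.20 at 60 min, above the 0.40 to 1.56 of Col-0 plants, while 1 plant of each ecotype was low at 120 min (1.71 in WS, 0.91 in Col-0).

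The bounds of the rule were passed narrowly by some genes. CB5-C lay just inside with an R(30) of 2.00 in Col-0, CYP707A4 with an R(120) of 4.01 in WS, and RPSAb with an R(120) of 4.02 in Col-0. Just outside were WOL with an R(120) in WS that was under 4 by less than rounding shows, PRN with R(240) at 0.502 of R(120) in WS, and AT2G39020 with an R(30) of 2.02 in Col-0. Among the members R(120) ran from 4.01 (CYP707A4) to 84.9 (AT1G54020) in WS and from 4.02 (RPSAb) to 43.3 (ChlAKR) in Col-0. The rule was met in WS by 211 genes and in Col-0 by 105 genes, and the 40 shared genes were 19% of the WS set and 38.1% of the Col-0 set. Without the 4 libraries that were shallow or low for the members (WS 0 min replicate 1, WS 120 min replicate 3, Col-0 60 min replicate 1 and Col-0 120 min replicate 1), 90 genes met the rule, and all 40 members were among them. Those of 120 min were picked for low levels of the members, and leaving them out tends to raise R(120). That all 40 stayed is therefore no check of the membership. When each replicate number was left out in turn, 30, 23 and 16 of the 40 members still met the rule, and 6 met it every time: AT1G12540, AT1G54020, ChlAKR, AT4G21910, AT4G35160 and AT5G43745. With 0.1 in place of 1 added to each mean 23 of the 40 still met it, with the median of replicates in place of the mean 22, and with TPM in place of RPKM 28.

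**Figure D2:**
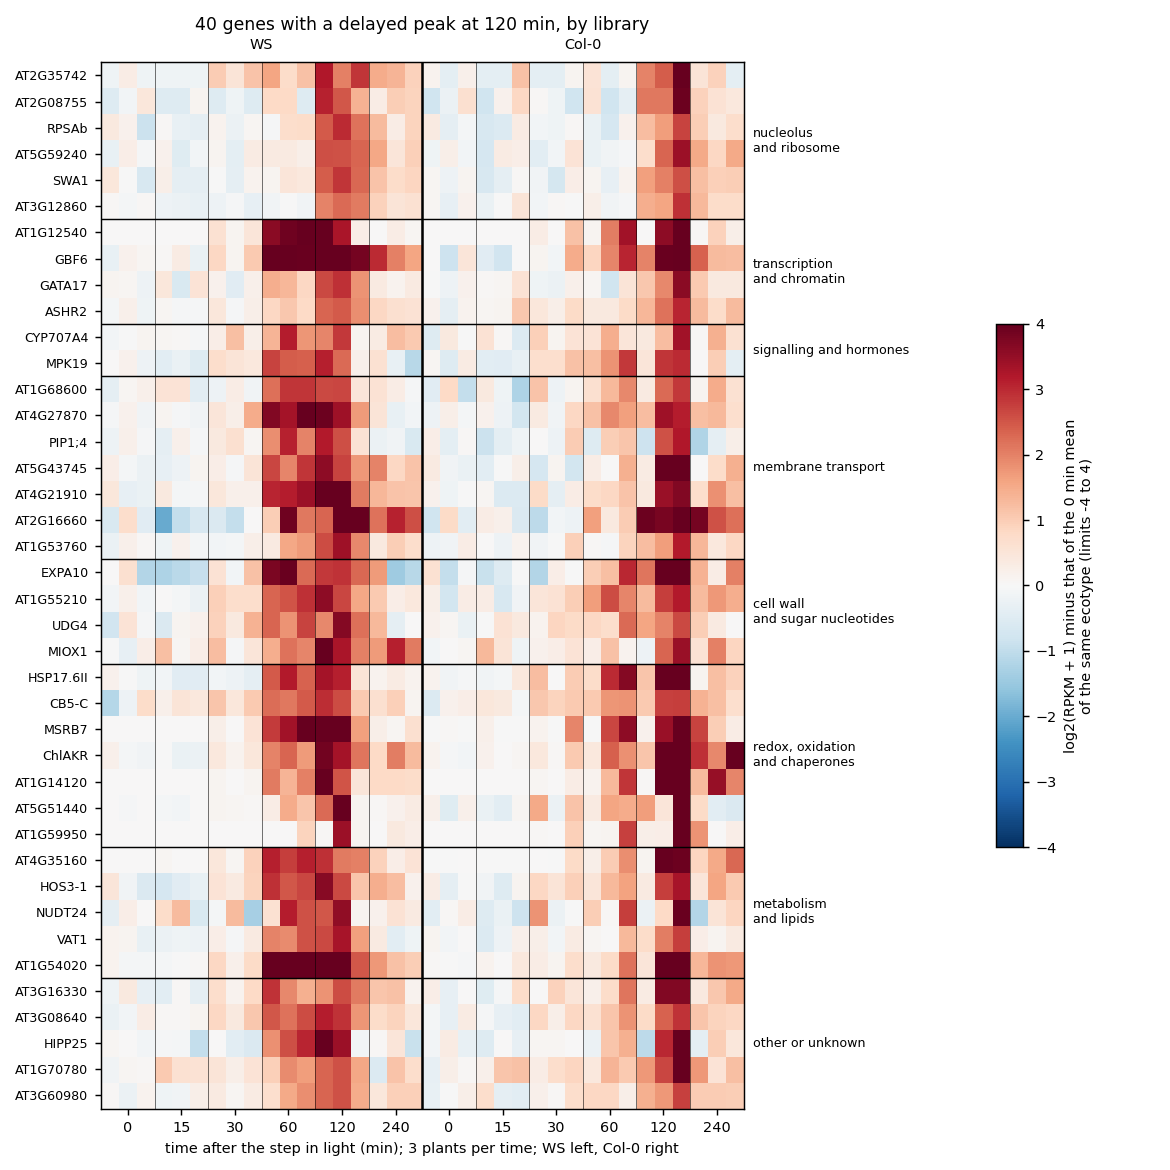
log2(RPKM + 1) of the 40 members (rows, grouped by role) in all 36 libraries (columns, 3 plants per time, WS left and Col-0 right), minus the mean of 0 min of the same ecotype; red is higher and blue lower, with colours capped at -4 and 4. The WS columns of 60 min are red for most rows outside the nucleolus and ribosome group, whose 6 rows turn red at 120 min.

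At 60 min the members were on the whole higher in WS than in Col-0. Of the 40, 12 were higher in WS and 0 were lower (limma, adjusted p under 0.05 over all 13817 genes), which is 30% of the members, against 4.57% of all genes tested that were higher in WS and 6.31% that were lower. The log2 difference was above 0 for 36 of the 40 and had a median of 1.16, against -0.02 for all genes. For 18 of the 40 (45%) all 3 WS libraries lay above all 3 Col-0 libraries, which was so for 12.1% of all genes. The mean was higher in WS for 34 members at 60 min, but for 18 at 0 min and 19 at 120 min. The count of 12 depended on the plants used. It stayed at 12 without Col-0 60 min replicate 3, was 5 to 7 without any other single library of 60 min, and was 6, 2 and 7 without replicates 1, 2 and 3 at all times. In these fits 188 to 539 of all genes were higher in WS, against 631 with all 36 libraries. AT3G60980 and AT4G27870 kept their calls in all of these fits, and the other 10 each lost theirs in at least 1. Without the 4 libraries named above the count was 15, and the 6 libraries of 60 min on their own gave 7. Col-0 60 min replicate 1, among the 4, was picked for low levels of the members, so the 15 is no independent check.

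**Figure D3:**
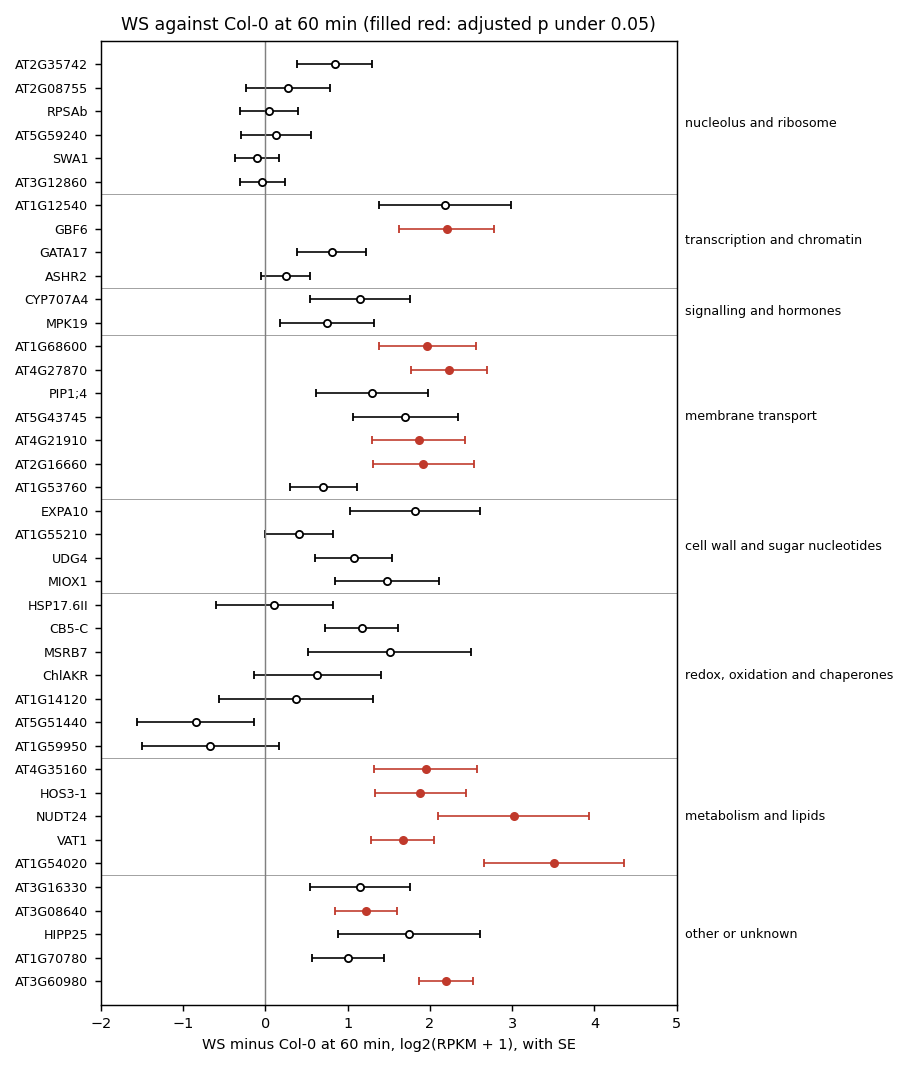
WS minus Col-0 at 60 min in log2(RPKM + 1) for each member, with the standard error of the limma fit; filled red points passed an adjusted p of 0.05 over all genes tested. The 12 filled points lie between 1.22 and 3.51, and the 6 nucleolus and ribosome genes lie between -0.10 and 0.84, none of them filled.

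How far the rise had gone by 60 min was taken as the share of the rise in mean RPKM between 0 and 120 min that had been reached at 60 min. This is a description, since the rule fixed both ends. Its median over the 40 members was 55.6% in WS and 14% in Col-0. The 6 genes of the nucleolus and ribosome had reached a median of 6.93% in WS and -0.371% in Col-0, and the other 34 had reached 72% in WS and 17.7% in Col-0. With each replicate left out in turn, the median over all 40 stayed between 40.4% and 74.5% in WS and between 12.5% and 17.1% in Col-0. R(60) was at least 2 for 33 members in WS and 23 in Col-0, and at least 4 for 25 in WS and 7 in Col-0. In WS the mean of 60 min was above that of 120 min for 8 members (AT1G12540, EXPA10, AT4G35160, AT1G68600, AT4G27870, CYP707A4, GBF6 and MPK19), and in Col-0 for 0. In 37 members the share was larger in WS, the exceptions being AT1G59950, AT5G51440 and AT3G12860.

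**Figure D4:**
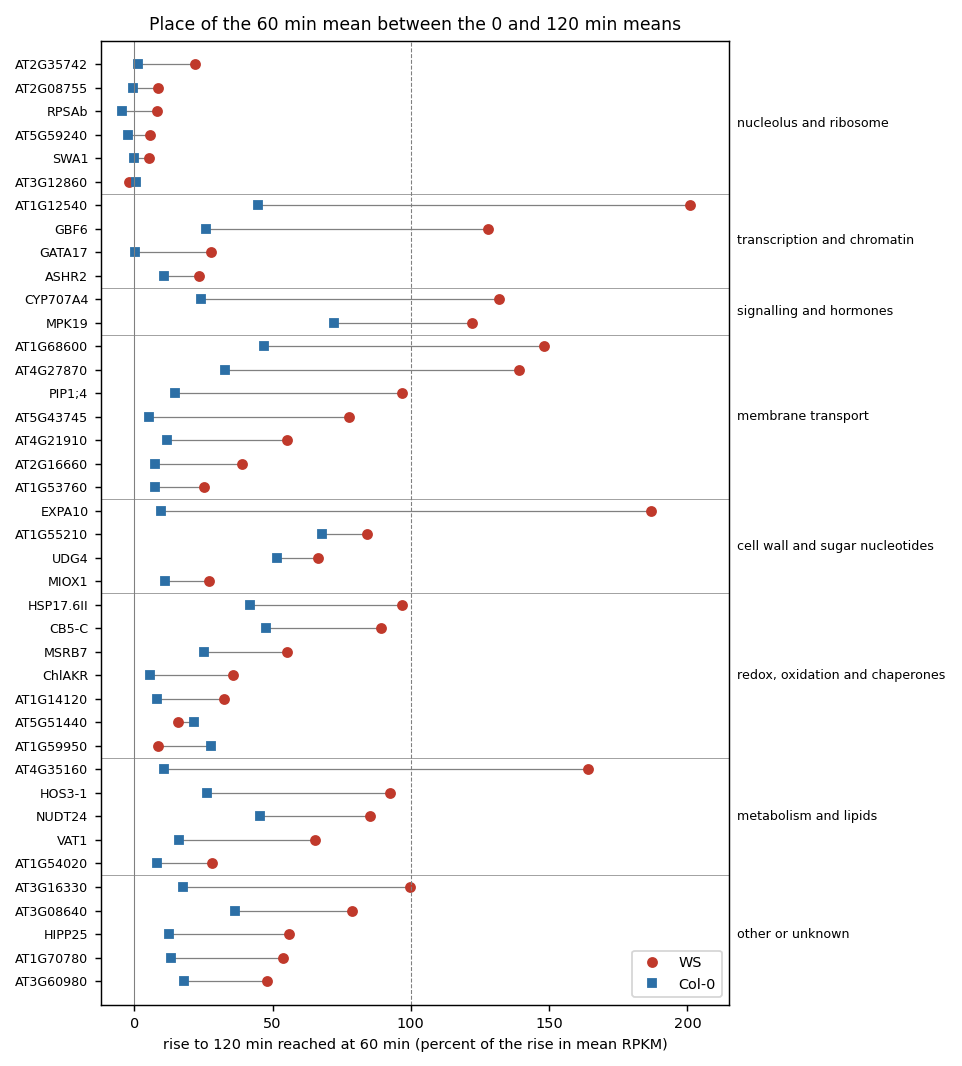
Share of the rise in mean RPKM from 0 to 120 min that was reached at 60 min (x axis, percent) for each member, WS as circles and Col-0 as squares; the dashed line at 100 marks the 120 min mean. Circles lie to the right of squares in 37 of 40 rows, 8 circles lie beyond 100, and the 6 nucleolus and ribosome genes lie between -1.71 and 22 in WS and between -4.48 and 1.31 in Col-0.

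For the members, calls at 120 min against 0 min restate the rule. They were 38 of 40 in WS (23.2% of all genes were higher) and 36 of 40 in Col-0 (20.3% of all genes). At 240 min against 120 min 31 of 40 were called lower in WS (11.9% of all genes) and 18 of 40 in Col-0 (5.81% of all genes). Nothing is read from these counts.

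The first group by role makes or belongs to ribosomes. Ribosome assembly starts in the nucleolus, where the ribosomal RNA precursor is cut and modified with the help of small nucleolar RNAs (snoRNAs) and their proteins. SWA1 (SLOW WALKER1, AT2G47990, chr2:19636867-19638678, minus strand) is a nucleolar WD-40 protein needed for processing of the 18S ribosomal RNA precursor. Its level was 4.31, 2.80 and 1.47 RPKM in WS and 4.62, 3.57 and 4.66 RPKM in Col-0 at 0 min and 3.15, 4.37 and 4.13 RPKM in WS and 4.72, 3.21 and 4.85 RPKM in Col-0 at 60 min. At 120 min it was 19.9, 26.8 and 18.03 RPKM in WS and 15.5, 20.5 and 30.8 RPKM in Col-0, and at 240 min 7.52, 5.40 and 5.99 RPKM in WS and 11.3, 9.34 and 9.49 RPKM in Col-0. All 6 libraries of 120 min were above all libraries of every other time. For all times but 60 min this follows in part from the rule and is only a description. WS and Col-0 libraries overlapped at 60 and 120 min. RPSAb, a protein of the small ribosomal subunit (AT3G04770, chr3:1309273-1311129, minus strand), had a like course, with 2.57, 5.04 and 5.13 RPKM in WS and 3.89, 2.73 and 5.67 RPKM in Col-0 at 60 min and 19.4, 28.1 and 15.8 RPKM in WS and 12.9, 17.75 and 37.4 RPKM in Col-0 at 120 min. The 120 min libraries were again the 6 highest for RPSAb, which is likewise a description. AT3G12860, which resembles NOP56, a core protein of box C/D snoRNA particles, was expressed less, at 0.65, 0.79 and 0.65 RPKM in WS and 1.01, 0.57 and 0.67 RPKM in Col-0 at 60 min and 6.19, 7.69 and 6.62 RPKM in WS and 3.73, 4.09 and 12.1 RPKM in Col-0 at 120 min. AT5G59240, of the S8e family of small-subunit proteins, was at 1.05, 1.04 and 0.87 RPKM in WS and 0.67, 0.84 and 0.96 RPKM in Col-0 at 60 min and 8.51, 8.18 and 6.88 RPKM in WS and 2.27, 9.22 and 20.9 RPKM in Col-0 at 120 min. For these 4 coding genes the log2 difference between WS and Col-0 at 60 min was -0.10, 0.04, -0.04 and 0.13 in the order given (adjusted p of 0.87, 0.97, 0.96 and 0.9), with standard errors of 0.27, 0.35, 0.27 and 0.42. Each of the 4 overlaps another annotated gene, and the strand setting of the authors' counting is not given in the sources used here, so reads of the partner cannot be told apart.

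**Figure D5:**
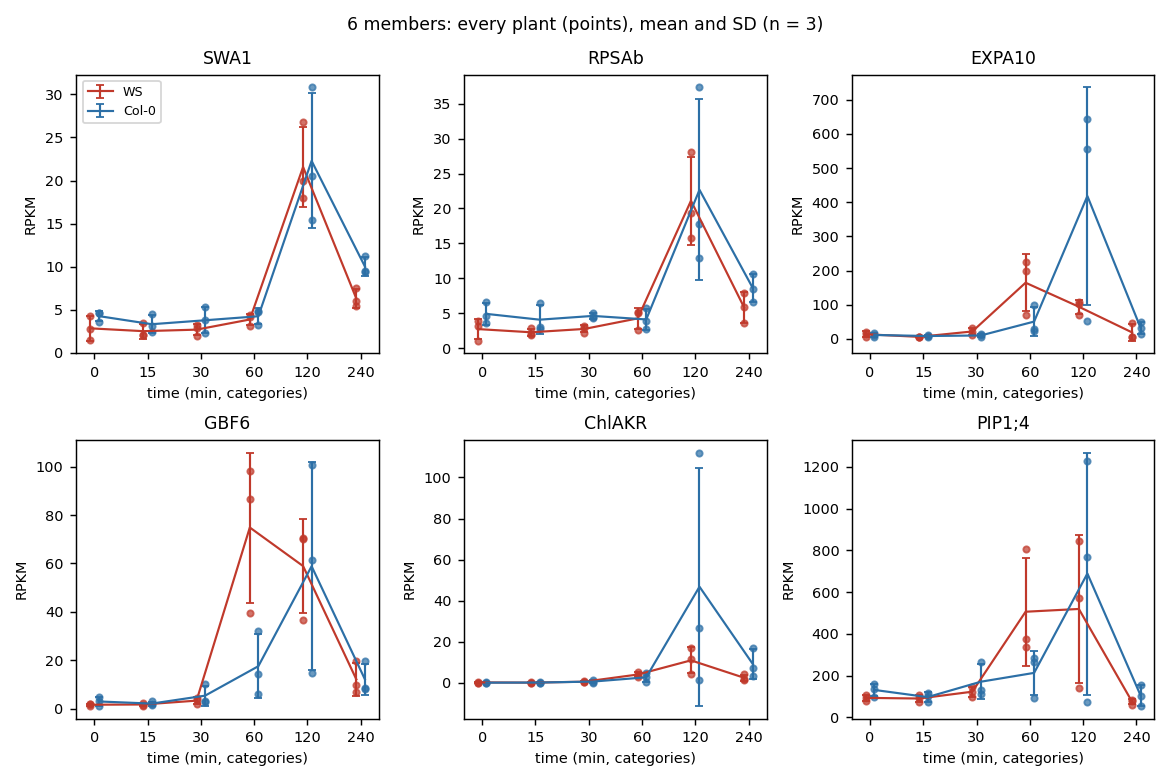
RPKM of 6 members in every plant (points), with the mean and SD (lines and bars, n = 3) against time after the step in light (min), WS in red and Col-0 in blue; times are drawn as evenly spaced categories. SWA1 and RPSAb were flat to 60 min in both ecotypes and highest at 120 min, while EXPA10 and GBF6 had their highest WS mean at 60 min and their highest Col-0 mean at 120 min.

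The other 2 members of this group are snoRNA genes that lie next to each other on the minus strand of chromosome 2 (build TAIR10.1), AT2G35742 at chr2:15027589-15027668 and AT2G08755 at chr2:15027711-15027803. SnoRNAs of the box C/D class guide methylation of ribosomal RNA, and they are named for the box C (TGATGA) near the 5′ end and the box D (CTGA) near the 3′ end. The 2 gene sequences are shown because they are the only members whose product is an RNA. Capitals mark every TGATGA and CTGA on the transcribed strand.
AT2G35742: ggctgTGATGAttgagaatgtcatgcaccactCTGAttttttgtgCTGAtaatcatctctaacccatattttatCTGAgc
AT2G08755: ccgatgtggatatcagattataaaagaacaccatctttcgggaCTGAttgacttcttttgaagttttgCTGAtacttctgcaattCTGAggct
AT2G35742 held TGATGA at base 6 and CTGA at base 75 of its 80 bases. AT2G08755 held CTGA at base 86 of its 93 bases and no TGATGA. AT2G35742 was at 2.34, 0.86 and 1.53 RPKM in WS and 0.94, 0 and 0.41 RPKM in Col-0 at 60 min and 9.36, 3.6 and 7.12 RPKM in WS and 4.17, 6.03 and 21.3 RPKM in Col-0 at 120 min. AT2G08755 was at 1.51, 1.49 and 0 RPKM in WS and 1.61, 0 and 0.36 RPKM in Col-0 at 60 min and 11.01, 7.05 and 2.76 RPKM in WS and 6.45, 6.48 and 25.2 RPKM in Col-0 at 120 min. For both genes every library of 120 min was above every library of 0, 15, 30, 60 and 240 min. The rule used the means of all these times but 60 min, so this too is a description. The counts behind these values are small: a 120 min library held 10 to 35 reads for AT2G35742 and 9 to 48 for AT2G08755, and a 60 min library 0 to 4 and 0 to 6. The libraries were made with a kit that selects polyadenylated RNA, which most mature snoRNAs are not, and what RNA these reads come from was not tested. The WS minus Col-0 difference at 60 min was 0.84 on the log2 scale for AT2G35742 (adjusted p = 0.27) and 0.27 for AT2G08755 (adjusted p = 0.81).

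Other genes of the same process were counted in lists from which the members were left out. Of 17 other ribosome biogenesis genes, 17 passed the test as higher at 120 min in WS and 15 in Col-0 (against 23.2% and 20.3% of all genes), with median log2 changes of 1.54 in WS and 1.32 in Col-0, against 0.10 and 0.06 for all genes. Of 296 other ribosomal protein genes, 163 were higher and 18 lower in WS, and 199 were higher and 2 lower in Col-0, with medians of 0.62 in WS and 0.77 in Col-0. Among 85 other snoRNA genes 60 were higher in WS and 9 in Col-0, with medians of 1.79 and 0.66, and this difference between ecotypes was not tested. Of 287 snoRNA genes only 87, members included, had a reading above 7 RPKM. A gene can pass that filter through a 120 min library alone, which favours calls of higher at 120 min, so these counts are a description. For reference, 17.3% of all genes were lower at 120 min in WS and 15.7% in Col-0. At 240 min against 120 min, 9 of the 296 ribosomal protein genes were higher and 21 lower in WS. In Col-0 6 were higher and 5 lower, and the medians were 0.0035 in WS and -0.15 in Col-0. Of the 17 ribosome biogenesis genes 13 were lower in WS and 7 in Col-0, where 1 was higher. Of the 85 snoRNA genes 43 were lower in WS and 16 in Col-0. Of all genes, 10.3% were higher and 11.9% lower in WS, and 6.64% were higher and 5.81% lower in Col-0. At 60 min 1 of the 17 ribosome biogenesis genes was higher in WS and 7 were lower, and 4 of the 296 ribosomal protein genes were higher in WS and 76 lower, which is opposite in direction to the members called. Among the 85 snoRNA genes 2 were higher in WS and 5 lower, with a median of 0.04. Of all genes, 4.57% were higher in WS at 60 min and 6.31% lower.

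The stretches before the start of the coding genes of this group were searched for 2 short motifs known from plant ribosomal protein promoters, site II (TGGGCC) and the telo box (AAACCCTA), on both strands. Of the 4 genes, 3 are shown, those with a match in the 250 bases before the annotated start, 5′ to 3′ on the strand of the gene, with the matches in capitals (a match on the other strand reads GGCCCA or TAGGGTTT).
SWA1 (chr2:19638679-19638928, minus strand): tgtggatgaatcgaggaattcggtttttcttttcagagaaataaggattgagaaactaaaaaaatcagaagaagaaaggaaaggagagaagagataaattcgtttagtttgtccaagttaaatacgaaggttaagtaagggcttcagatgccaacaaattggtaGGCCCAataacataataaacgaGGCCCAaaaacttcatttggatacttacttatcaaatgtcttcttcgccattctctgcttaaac
AT3G12860 (chr3:4091317-4091566, plus strand): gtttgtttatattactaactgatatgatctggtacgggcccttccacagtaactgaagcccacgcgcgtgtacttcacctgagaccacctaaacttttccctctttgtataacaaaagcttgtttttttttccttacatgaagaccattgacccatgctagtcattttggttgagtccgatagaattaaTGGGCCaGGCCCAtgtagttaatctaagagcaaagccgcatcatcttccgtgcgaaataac
AT5G59240 (chr5:23903768-23904017, minus strand): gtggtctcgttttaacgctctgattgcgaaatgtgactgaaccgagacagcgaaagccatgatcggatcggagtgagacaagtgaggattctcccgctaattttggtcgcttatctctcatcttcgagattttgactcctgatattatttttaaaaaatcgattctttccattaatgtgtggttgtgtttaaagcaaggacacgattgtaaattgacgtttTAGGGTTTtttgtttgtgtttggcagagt
SWA1 held site II at 86 and 64 bases before the start and AT3G12860 at 61 and 54 bases before it, in all 4 cases counted to the first base of the match. AT5G59240 held a telo box 29 bases before the start. With the window extended to 50 bases after the start, the telo box was found in 7 of 38 coding members (18.4%), 3 of them in this group, against 5.65% of the 13406 promoters of coding genes tested. In the 250 bases before the start alone it was in 4 of 38 (10.5%), against 3.46%. Site II was in 6 of 38 (15.8%) in both windows, against 20.4% of promoters in the longer window and 17.9% in the shorter. The telo box was added to the search after ribosomal genes had been seen among the members.

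Of the other 13 motifs searched in this longer window, the ABRE core ACGTG, a site bound by bZIP factors, was in 16 of 38 coding members (42.1%), against 28.9% of the promoters of coding genes tested. The longer G-box CACGTG, which contains it, was in 5 of 38 (13.2%), against 9.74%. TATAAA was in 25 of 38 (65.8%), against 51.1%, but in the 250 bases before the start alone it was in 18 of 38 (47.4%), against 45.6%. The evening element AAATATCT, a site of circadian regulators, was in 5 of 38 (13.2%), against 6.44%. Shares of members and of all tested promoters were 47.4% and 50.5% for TTGAC (W-box core), 21.1% and 24.1% for TGACG (as-1 core), 18.4% and 16.9% for CCGAC (DRE core), and 13.2% and 15.5% for GATAAG (I-box). They were 10.5% and 12.9% for CATGTG, 7.89% and 11.4% for GAANNTTC (heat shock element core), 5.26% and 6.33% for GNATATNC (P1BS) and 2.63% and 2.72% for GCCGCC (GCC box). CGCGTT, the rapid stress response element known from early wound-induced genes, was in 0 of 38 members, against 3.99% of promoters. A match is only a match of letters.

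Among transcription and chromatin genes, GBF6 (bZIP11, AT4G34590, chr4:16521861-16523230) was higher in WS at 60 min. GBF6 is a bZIP factor that acts on amino acid and sugar metabolism and whose mRNA is translated less when sucrose is high. It was at 1.16, 1.98 and 1.75 RPKM in WS and 3.07, 1.26 and 4.62 RPKM in Col-0 at 0 min. At 60 min it had reached 98.3, 86.6 and 39.7 RPKM in WS and 6.17, 14.3 and 32.2 RPKM in Col-0, so that the lowest WS library was above the highest Col-0 library. The log2 difference was 2.20 ± 0.58 (SE, n = 3 each, adjusted p = 0.012). At 120 min it was at 70.3, 69.9 and 36.5 RPKM in WS and 14.6, 61.3 and 101 RPKM in Col-0, and the ecotypes overlapped. AT1G12540, a basic helix-loop-helix factor with no reads at 0 or 15 min in any library, was at 11.1, 13.9 and 22.8 RPKM in WS and 0.07, 3.11 and 9.31 RPKM in Col-0 at 60 min and 15.0, 8.61 and 0.21 RPKM in WS and 0, 10.9 and 17.1 RPKM in Col-0 at 120 min. The 60 min difference for AT1G12540 was 2.19 ± 0.80 (adjusted p = 0.083), which did not pass. GATA17, of the GATA zinc finger family, had its high libraries at 120 min, with 33.3, 40.4 and 18.1 RPKM in WS and 14.9, 27.6 and 90.6 RPKM in Col-0, against 13.9, 12.6 and 8.60 RPKM in WS and 6.97, 3.33 and 9.64 RPKM in Col-0 at 60 min. ASHR2, a SET-domain protein of the family of histone methyltransferases, was at 19.3, 21.03 and 13.5 RPKM in WS and 10, 18.7 and 35.5 RPKM in Col-0 at 120 min, against 6.12, 7.38 and 6.03 RPKM in WS and 4.74, 4.82 and 6.56 RPKM in Col-0 at 60 min. The WS minus Col-0 difference at 60 min passed the test for neither (0.80 ± 0.42 for GATA17 and 0.24 ± 0.29 for ASHR2).

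MPK19 and CYP707A4 were the members with roles in signalling and hormones. MPK19, a mitogen-activated protein kinase, was at 135, 113 and 108 RPKM in WS and 41.6, 63.3 and 129 RPKM in Col-0 at 60 min and 179, 99.2 and 23.0 RPKM in WS and 25.1, 132 and 146 RPKM in Col-0 at 120 min. CYP707A4, an abscisic acid 8′-hydroxylase that starts the breakdown of that hormone, was low, at 3.21, 13.6 and 4.60 RPKM in WS and 1.60, 3.84 and 1.49 RPKM in Col-0 at 60 min and 5.34, 10.6 and 0.77 RPKM in WS and 1.30, 3.12 and 17.1 RPKM in Col-0 at 120 min. In Col-0, 1 library of 120 min carried most of the CYP707A4 mean. Differences at 60 min were 0.75 ± 0.57 for MPK19 (adjusted p = 0.48) and 1.15 ± 0.61 for CYP707A4 (adjusted p = 0.26).

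Membrane transport was the role of 7 members, and 4 of these were higher in WS at 60 min, against 4.57% of all genes. PIP1;4 (AT4G00430, chr4:185285-187680), a plasma membrane aquaporin, had the highest mean of all members at 120 min. It was at 80.8, 109 and 91.0 RPKM in WS and 159.6, 99.8 and 136 RPKM in Col-0 at 0 min, 339, 806 and 374 RPKM in WS and 91.5, 264 and 284 RPKM in Col-0 at 60 min and 847, 569.9 and 141 RPKM in WS and 74.4, 767 and 1227 RPKM in Col-0 at 120 min. At 120 min 1 library of each ecotype was far below the other 2, and the 60 min difference of 1.29 ± 0.68 did not pass (adjusted p = 0.26). AT4G27870, of the vacuolar iron transporter family, was at 84.1, 65.6 and 106 RPKM in WS and 12.7, 21.7 and 17.83 RPKM in Col-0 at 60 min, with a log2 difference of 2.23 ± 0.46 (adjusted p = 0.0017), and all WS libraries were above all Col-0 libraries. AT4G21910, a MATE efflux carrier, was at 95.7, 101 and 126 RPKM in WS and 25.5, 27.1 and 33.8 RPKM in Col-0 at 60 min, also without overlap (1.86 ± 0.57, adjusted p = 0.032). AT1G68600, of the aluminum-activated malate transporter family, was at 136, 214 and 216 RPKM in WS and 29.6, 47.2 and 71.9 RPKM in Col-0 (1.97 ± 0.59, adjusted p = 0.028). AT2G16660, of the major facilitator superfamily, was at 11.6, 92.4 and 26.6 RPKM in WS and 12.0, 4.43 and 7.53 RPKM in Col-0, where 1 Col-0 library was above the lowest WS library (1.92 ± 0.61, adjusted p = 0.042). AT2G16660 lost its call without WS 60 min replicate 2, with a difference of 1.14. AT5G43745, which resembles the ion channel POLLUX, was at 91.0, 55.2 and 104 RPKM in WS and 19.8, 16.0 and 43.8 RPKM in Col-0 at 60 min and 171, 93.4 and 46.7 RPKM in WS and 20.3, 278 and 347 RPKM in Col-0 at 120 min (60 min difference 1.70 ± 0.64, adjusted p = 0.091). AT1G53760, annotated as K+-H+ exchange-like, was at 6.84, 16.7 and 18.8 RPKM in WS and 6.28, 5.81 and 11.9 RPKM in Col-0 at 60 min and 36.4, 63.6 and 22 RPKM in WS and 15.4, 21.4 and 62.0 RPKM in Col-0 at 120 min (60 min difference 0.70 ± 0.41, adjusted p = 0.32).

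The 4 members of cell wall and sugar nucleotide metabolism were not called at 60 min (4.57% of all genes were higher in WS), though their means were higher in WS. EXPA10 (AT1G26770, chr1:9259432-9261313) is an expansin, a protein that loosens cell walls. It was at 198, 226 and 69.7 RPKM in WS and 23.9, 27.8 and 100.2 RPKM in Col-0 at 60 min and 103, 108 and 70.9 RPKM in WS and 53.5, 557 and 644 RPKM in Col-0 at 120 min. WS thus had its higher mean at 60 min (164, against 94.0 at 120 min), and Col-0 at 120 min (418, against 50.6 at 60 min). The 60 min difference for EXPA10 was 1.82 ± 0.79 (adjusted p = 0.16). Of 13 other genes of wall loosening, 0 were higher and 3 lower at 120 min than at 0 min in WS, and 0 were higher and 4 lower in Col-0. Of all genes, 23.2% were higher and 17.3% lower in WS, and 20.3% were higher and 15.7% lower in Col-0. MIOX1 (myo-inositol oxygenase) and UDG4 (UDP-glucose 6-dehydrogenase) are enzymes of the 2 routes to UDP-glucuronate, a precursor of wall polysaccharides. MIOX1 was at 33.1, 15.7 and 5.97 RPKM in WS and 0.35, 6.79 and 16.3 RPKM in Col-0 at 120 min, and UDG4 at 31.2, 107 and 37.8 RPKM in WS and 22.9, 31.0 and 49.5 RPKM in Col-0. AT1G55210, a dirigent-like protein, was at 153, 173 and 228 RPKM in WS and 102, 199 and 126 RPKM in Col-0 at 60 min and 361, 193 and 88.0 RPKM in WS and 77.6, 219 and 289 RPKM in Col-0 at 120 min. By 60 min it had made 84.1% of its rise in WS and 67.8% in Col-0.

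Of the redox, oxidation and chaperone genes, 0 of 7 passed the test between ecotypes at 60 min (of all genes, 4.57% were higher in WS and 6.31% lower). ChlAKR is a chloroplast aldo-keto reductase that reduces reactive carbonyls formed from peroxidised lipids. It was at 3.91, 5.26 and 3.03 RPKM in WS and 0.47, 4.76 and 2.94 RPKM in Col-0 at 60 min and 17.03, 11.4 and 4.45 RPKM in WS and 1.39, 26.9 and 112 RPKM in Col-0 at 120 min, and 1 Col-0 library of 120 min was far above the other 2. AT1G59950, another aldo-keto reductase by its family, was at 0.04, 9.74 and 0.09 RPKM in WS and 0.17, 0.21 and 20.2 RPKM in Col-0 at 120 min, so 1 library of each ecotype made up nearly all of its mean. Of the 15 other aldo-keto reductase genes, 1 was higher and 3 lower at 120 min in WS, and 2 were higher and 3 lower in Col-0. Of all genes, 23.2% were higher and 17.3% lower in WS, and 20.3% were higher and 15.7% lower in Col-0. MSRB7, a methionine sulfoxide reductase that repairs oxidised methionine, was at 5.88, 9.20 and 24.9 RPKM in WS and 0, 5.42 and 11.2 RPKM in Col-0 at 60 min and 20.6, 49.6 and 2.15 RPKM in WS and 0.14, 10.05 and 55.8 RPKM in Col-0 at 120 min. CB5-C, an isoform of the electron carrier cytochrome b5, was the most abundant of this group, at 280.0, 257 and 326 RPKM in WS and 90.7, 148 and 152 RPKM in Col-0 at 60 min and 457, 367 and 123 RPKM in WS and 89.1, 292 and 299 RPKM in Col-0 at 120 min. CB5-C did not overlap between ecotypes at 60 min, but its difference of 1.17 ± 0.44 missed the threshold (adjusted p = 0.096). AT1G14120, a 2-oxoglutarate-dependent oxygenase, was at 18.9, 4.73 and 0.41 RPKM in WS and 0.03, 49.0 and 45.2 RPKM in Col-0 at 120 min, with 1 library of each ecotype near 0. HSP17.6II, a class II small heat shock protein that keeps unfolding proteins soluble, was at 6.75, 11.6 and 6.21 RPKM in WS and 1.48, 10.8 and 18.1 RPKM in Col-0 at 60 min and 13.3, 11.04 and 1.00 RPKM in WS and 2.23, 22.3 and 46.2 RPKM in Col-0 at 120 min. AT5G51440, an HSP20-like chaperone, was at 6.04, 23.7 and 0.56 RPKM in WS and 6.28, 2.20 and 39.5 RPKM in Col-0 at 120 min, where again 1 library per ecotype was high. Another 15 genes were listed by product names such as small heat shock protein or HSP20-like, not all of which need be small heat shock proteins. Of these, 5 were higher and 1 lower at 120 min than at 0 min in WS, and 0 were higher and 2 lower in Col-0. The shares of all genes are those given above for the aldo-keto reductases.

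All 5 members of metabolism and lipids were higher in WS at 60 min, against 4.57% of all genes. The group is small, and each of these calls was lost in at least 1 fit with libraries left out. AT1G54020, a GDSL-type lipase, had the largest difference of all members. It was at 0 to 0.17 RPKM in the 0 min libraries of both ecotypes, and at 60 min it was at 18.9, 22.3 and 34.2 RPKM in WS and 0.35, 0.75 and 3.69 RPKM in Col-0 (3.51 ± 0.86, adjusted p = 0.0069). At 120 min it was at 175, 85.8 and 4.95 RPKM in WS and 0.44, 33.2 and 23.5 RPKM in Col-0. VAT1 (VALINE-TOLERANT 1) is a regulatory subunit of acetolactate synthase, the enzyme that starts synthesis of the branched-chain amino acids. It was at 26.1, 25.5 and 19.0 RPKM in WS and 25.2, 21.6 and 23.56 RPKM in Col-0 at 0 min and 96.9, 89.3 and 142 RPKM in WS and 25.1, 23.9 and 59.5 RPKM in Col-0 at 60 min, with no overlap (1.67 ± 0.38, adjusted p = 0.0044). HOS3-1, of the family of fatty acid elongases, was at 17.2, 12.2 and 14.1 RPKM in WS and 1.65, 3.70 and 4.81 RPKM in Col-0 at 60 min, also with no overlap (1.88 ± 0.55, adjusted p = 0.025). AT4G35160, an O-methyltransferase, was at 7.58, 5.78 and 7.70 RPKM in WS and 0.19, 1.02 and 2.67 RPKM in Col-0 at 60 min (1.95 ± 0.63, adjusted p = 0.044) and 6.63, 3.21 and 3.00 RPKM in WS and 0.09, 20.98 and 14.3 RPKM in Col-0 at 120 min, when the higher mean was in Col-0. NUDT24, a Nudix hydrolase (enzymes that split nucleoside diphosphate compounds), was at 17.9, 109 and 71.8 RPKM in WS and 4.45, 1.84 and 17.42 RPKM in Col-0 at 60 min (3.02 ± 0.92, adjusted p = 0.031). NUDT24 was already higher in WS at 0 min, at 8.71, 14.0 and 11.5 RPKM in WS and 1.02, 1.81 and 2.36 RPKM in Col-0.

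The remaining 5 members have other or unknown roles. AT3G60980, a tetratricopeptide repeat protein, was higher in WS at 60 min, at 14.4, 26.46 and 33.7 RPKM in WS and 5.10, 5.19 and 3.05 RPKM in Col-0 (2.19 ± 0.33, adjusted p = 2.3e-05), but it was already higher at 0 min, at 8.94, 7.18 and 9.67 RPKM in WS and 1.82, 2.45 and 3.1 RPKM in Col-0. By 60 min it had made 48% of its rise in WS and 17.9% in Col-0. AT3G08640, a chloroplast membrane protein of the RETICULATA-related family, was at 170.4, 136 and 187 RPKM in WS and 46.6, 66.5 and 108 RPKM in Col-0 at 60 min, with no overlap (1.22 ± 0.38, adjusted p = 0.034). HIPP25, a heavy-metal-associated protein, was at 32.9, 56.3 and 77.8 RPKM in WS and 6.90, 19.4 and 24.2 RPKM in Col-0 at 60 min and 169.6, 101 and 7.84 RPKM in WS and 3.56, 74.8 and 148 RPKM in Col-0 at 120 min, and the lowest 120 min library of each ecotype was below all 0 min libraries of that ecotype. AT1G70780, annotated as uncharacterized, was at 351, 403 and 204 RPKM in WS and 168, 320.3 and 808 RPKM in Col-0 at 120 min. AT3G16330, which is annotated by its likeness to a protein rapidly elicited in defence in tobacco, was at 4.74, 9.22 and 6.03 RPKM in WS and 0.93, 19.3 and 18.9 RPKM in Col-0 at 120 min.

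Properties not used by the rule were also compared. The members lay on all chromosomes, with 10, 7, 8, 8 and 7 on chromosomes 1 to 5. The median exon length of the 38 coding members was 1502 bases, against 1752 bases for the 13407 coding genes tested, and 6 of 38 (15.8%) had a single exon, against 10.8%.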

How the data were processed

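RNA-Seq of WS and Col-0 leaves was analysed in 36 libraries, 3 for each of 12 groups of ecotype and time. Per the study's methods, reads were trimmed with Trimmomatic 0.32, checked with FastQC, aligned to TAIR10 with STAR 2.3.0e and counted per gene with featureCounts, and the RPKM values deposited by the authors were the only values used. The strand setting and the annotation release were not stated. Times were taken in minutes from the sample titles; a field of the labels calls them hours and holds 20 in place of 30. Named sample columns not used numbered 0.

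The rule was applied to mean RPKM. Groups were compared on log2(RPKM + 1) with limma 3.58.1 (R 4.3.3), with a mean-variance trend, all 36 libraries in 12 groups, genes with any reading above 7 RPKM, 2-sided p-values and Benjamini-Hochberg adjustment at 0.05 over 13817 genes. The logarithm with 1 added understates the change of low genes. p-values rest on 1 spread per gene, pooled over all 12 groups of 3 plants and moderated across genes. They do not measure the spread of the 60 min libraries alone, and this fit took leaves of a plant as independent. Read numbers per library were recovered from the steps in RPKM (at least 99.85% of the values tested within 0.1 read of a whole number). Exon lengths, positions and sequences came from RefSeq, TAIR10.1, a copy of the TAIR10 build, in which 37051 of 37336 genes had an exon length and 285 did not; promoters ran from 250 bases before to 50 after the annotated start. The correlation of leaves of a plant, over all genes, was 0.117 and entered the fit with a replicate block. Members and gene lists were chosen with earlier results of these data known. With 40 members, all are named; the snoRNA neighbours were named after their values had been seen. Alternatives were the pseudocount, filters, scaling to TPM or by median of ratios, the mean-variance trend, voom on recovered reads, the replicate block, the 60 min libraries alone, each replicate left out, and 4 shallow or low libraries left out. The settings of the 120 and 240 min comparisons and the telo box were added after the data had been seen.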

Additional observations from a re-analysis of the deposited data

Results flagged for a closer look

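GBF6 moved in opposite directions in the ecotypes between 60 and 120 min. In the 3 WS plants its log2(RPKM + 1) changed by -0.48, -0.30 and -0.12, and in the 3 Col-0 plants by 1.13, 2.03 and 1.62, so that the mean step was -0.30 in WS and 1.59 in Col-0. The difference of WS minus Col-0 was -1.89. Every plant of 1 ecotype moved one way and every plant of the other the opposite way, for 1 of the 40 members. All 40 members were scanned for such a split, and its share among all genes was not counted. The rule used the means at 120 min, and the difference was not tested.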

How the results depend on the processing

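Membership moved with the bounds: 71 genes with R(120) of at least 3, 25 with at least 5, 64 with R(240) at most 0.75 of R(120), 90 without the 4 shallow or low libraries, and 29 to 56 with a replicate left out (16 to 30 of them members). It also moved with the scale: the rule found 44 genes with a pseudocount of 0.1 RPKM, 35 with medians of replicates and 32 with TPM, of which 23, 22 and 28 were members. With median-of-ratios scaling it found 39, of which 38 were members. Only AT4G21910 and AT5G43745 met it in all 8 of the settings that changed the scale, took medians or left out libraries. The number of members higher in WS at 60 min was 5 with no filter on low values (more genes tested), 7 with the 60 min libraries alone (fewer libraries), 2 to 7 with a replicate number left out at all times, and 5 to 12 without 1 library of 60 min. Ranges of other call counts and of log2 differences cover both kinds of omission. Over both kinds, 188 to 539 of all genes were higher in WS at 60 min, against 631 with all libraries. With plants as a replicate block it was 12, with 0 lower, and the block changed no count by over 1.5 times. Members higher at 120 min were 22 to 39 in WS and 22 to 37 in Col-0 with a replicate left out, and other ribosomal protein genes 97 to 164 in WS and 115 to 199 in Col-0. Members lower at 240 min were 0 to 31 in WS and 0 to 34 in Col-0 with a replicate left out. In Col-0 they were 10 with no filter and 37 without the 4 libraries, which were picked in part by the levels of the members. With a replicate left out, uncalled log2 differences at 60 min ran through 0: AT1G14120 from -0.41 to 1.09, AT1G59950 from -1.12 to 0.21, AT2G08755 from -0.25 to 0.71, SWA1 from -0.33 to 0.0808, RPSAb from -0.29 to 0.30, AT3G12860 from -0.15 to 0.0859 and HSP17.6II from -0.76 to 0.87. Without the 4 libraries, AT1G14120 was at -0.28, AT3G12860 at 0.0663 and HSP17.6II at -0.76. The median share of the rise reached at 60 min by the nucleolus and ribosome members in Col-0 ran from -0.50% to 2.05%. In the 250 bases before the start alone, the GCC box was in 0 coding members, the evening element in 3 and the telo box in 4. Other causes of these shifts were not tested. The snoRNA members rest on few reads, and the 7.35 M reads of WS 0 min replicate 1 limit its low values.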

Other observations

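The snoRNA members AT2G35742 and AT2G08755 have further annotated RNA genes beside them on the same strand, which were looked at after the values of the members had been seen. AT2G08760, at chr2:15027868-15028092, was below the 7 RPKM that membership needs, and its mean was 0.573 RPKM at 60 min, 1.66 RPKM at 120 min and 0.503 RPKM at 240 min in WS, and 0.52, 4.07 and 0.747 RPKM at these times in Col-0. The transcribed pseudogene AT2G35743, which overlaps it, had means of 0, 0.597 and 0.0567 RPKM in WS and 0, 2.13 and 0.187 RPKM in Col-0. AT2G08765, a snoRNA gene further along, was expressed from the start, with means of 19.2 RPKM at 0 min, 21.6 RPKM at 60 min and 44.5 RPKM at 120 min in WS, and 32.5, 27.4 and 46.9 RPKM in Col-0. Its neighbour AT2G35744 had means of 10.7, 20.2 and 27.6 RPKM in WS and 19.1, 11.4 and 26.8 RPKM in Col-0. The rule left these genes out, but their mean at 120 min was again the highest of the 6 times in both ecotypes. In Col-0, however, the 15 min mean was nearly as high for AT2G08765 (42.1 RPKM) and AT2G35744 (24.7 RPKM). In WS it was 15.1 and 11.2 RPKM. AT2G35747 and AT2G08770, at the far end of the stretch, were at 0 in all group means.

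Among pathways other than those of the members' roles, jasmonate synthesis genes were high at 120 min in both ecotypes: 11 of 14 were higher than at 0 min in WS and 13 of 14 in Col-0, with median log2 changes of 3.92 in WS and 3.59 in Col-0. Of all genes, 23.2% were higher at 120 min in WS and 20.3% in Col-0. At 240 min 8 of the 14 jasmonate synthesis genes were lower than at 120 min in WS and 2 in Col-0, against 11.9% and 5.81% of all genes. At 60 min 0 of the 14 passed the test between WS and Col-0. The median log2 difference of WS minus Col-0 was 0.84, against 1.16 for the members and -0.02 for all genes. A list for tryptophan, indole and camalexin synthesis was matched by symbol to 12 genes tested. Of these 9 were higher at 120 min in WS and 10 in Col-0, with medians of 2.62 and 2.64. At 60 min 2 of the 12 were higher in WS than in Col-0 and 0 lower, with a median of 0.58. The symbols PAT1 and TSA1 matched AT5G48150 and AT1G52410, other genes that are not of this pathway, so the counts are not of the pathway alone. None of these genes met the rule. Iron homeostasis genes went the other way in Col-0, where 11 of 18 were lower at 120 min than at 0 min (median -2.37) and 1 was higher, against 2 lower and 3 higher in WS (median -0.54), and this difference was not tested. Of all genes, 17.3% were lower at 120 min in WS and 15.7% in Col-0.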
